A study of Mus musculus with 6 samples.

Results

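The genes described here are 29 mouse genes that make, sense, take up, store or export cholesterol. They were picked by gene symbol as a pathway set, not by a cut on any measured value, but with earlier results of these data known. All 29 were found among the 17975 genes of the deposited table and passed the filter on low counts. They were compared between the livers of 3 Hom mice and 3 WT mice, 1 library per mouse. Hom mice are homozygous hepatocyte NEK7 knock-out mice (NEK7 fl/fl, Alb-Cre+), in which Cre recombinase is driven by the albumin promoter, so that the other cells of the liver should keep the gene. The control mice are labelled WT, and whether they carried the floxed allele or Cre is not given in the sources used here. No treatment is given for either group. The study's methods state that knock-out mice of both sexes were used and give an age range for its mice as a whole, and the age and sex of each sequenced mouse are not given in the sources used here.

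Cholesterol is built from acetyl-CoA in the cytosol and the endoplasmic reticulum, through mevalonate and isoprenoid units to squalene, then to lanosterol and through a chain of sterol intermediates. The liver is the main organ that makes, takes up and excretes it. When sterols are low, SREBP2, the transcription factor encoded by Srebf2, is released from the endoplasmic reticulum and switches on the synthesis genes through sterol regulatory elements, usually beside CCAAT boxes bound by NF-Y. When sterols are high, oxysterols activate LXR alpha, encoded by Nr1h3, which switches on the ABC transporters of efflux and Mylip.

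The promoters of 5 members are printed, for their elements or for their change in Hom livers. Hmgcs1 holds a sterol regulatory element, Srebf2 and Msmo1 hold only its shorter core, and each of them holds a CCAAT box. Srebf2 rose in Hom livers while Ebp and Tm7sf2 fell. Promoter sequences are from RefSeq on GRCm38.p6, which is another build than the mm9 that the submitters' processing notes name, and they were matched by gene symbol. They were found for 22 of the 29 members, as 27 promoters. The windows searched were 250 bases before to 50 bases after each start, and the 250 bases before the start are shown, 5′ to 3′. Capitals mark the sterol regulatory element TCACNCCAC, its core TCACNCCA and the CCAAT box, CCAAT or its reverse complement ATTGG, each searched on both strands.
Hmgcs1 promoter, chr13:119690101-119690350, plus strand: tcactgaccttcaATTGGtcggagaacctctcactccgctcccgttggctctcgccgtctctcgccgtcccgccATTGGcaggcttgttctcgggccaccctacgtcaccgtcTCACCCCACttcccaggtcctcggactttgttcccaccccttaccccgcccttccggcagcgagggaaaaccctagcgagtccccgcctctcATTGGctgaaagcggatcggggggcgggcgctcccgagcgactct
Srebf2 promoter, chr15:82147019-82147268, plus strand: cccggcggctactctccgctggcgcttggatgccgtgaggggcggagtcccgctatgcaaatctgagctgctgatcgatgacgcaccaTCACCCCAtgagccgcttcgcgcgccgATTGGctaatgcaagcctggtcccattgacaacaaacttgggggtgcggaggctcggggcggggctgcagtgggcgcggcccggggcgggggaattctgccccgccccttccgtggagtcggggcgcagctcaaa
Msmo1 promoter, chr8:64733579-64733828, minus strand: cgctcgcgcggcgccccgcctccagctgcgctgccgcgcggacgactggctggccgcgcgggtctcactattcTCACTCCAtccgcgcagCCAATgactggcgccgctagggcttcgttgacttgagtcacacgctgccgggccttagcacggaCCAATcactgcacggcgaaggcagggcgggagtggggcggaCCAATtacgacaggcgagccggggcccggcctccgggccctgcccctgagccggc
Ebp promoter, chrX:8193513-8193762, minus strand: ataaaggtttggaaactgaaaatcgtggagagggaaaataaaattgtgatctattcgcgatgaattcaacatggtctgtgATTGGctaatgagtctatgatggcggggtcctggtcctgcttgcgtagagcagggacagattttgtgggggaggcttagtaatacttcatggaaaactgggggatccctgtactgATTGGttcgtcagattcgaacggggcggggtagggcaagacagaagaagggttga
Tm7sf2 promoter, chr19:6067851-6068100, minus strand: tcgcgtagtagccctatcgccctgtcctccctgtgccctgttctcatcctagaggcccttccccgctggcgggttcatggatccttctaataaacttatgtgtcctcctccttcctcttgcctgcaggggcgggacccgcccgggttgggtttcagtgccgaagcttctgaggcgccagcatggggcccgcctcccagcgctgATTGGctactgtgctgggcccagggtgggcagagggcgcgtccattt

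The sterol regulatory element was searched as TCACNCCAC, and of the 22 members with a promoter only Hmgcs1 held it, 137 bases before its start. That is 3.70% of the members' promoters, against 1.24% of 32851 promoters of all genes. The core TCACNCCA, which lies inside the longer motif, was found in 3 members, Hmgcs1, Srebf2 and Msmo1 (11.1% of the promoters, against 4.36% of all). A CCAAT box was present in 19 of the 22 members, or 70.4% of their promoters, against 37.4% of all promoters. The windows of Abcg5 and Abcg8 overlap, and the box at the Abcg5 start is the Abcg8 box 114 bases before its start. That site is counted for both members. Ebp and Tm7sf2, the synthesis genes that were lower in Hom livers, held CCAAT boxes as well, and the letters TCACNCCA were not in their windows. The E-box letters CACGTG stood in the promoters of 5 members, Abca1, Dhcr7, Hsd17b7, Insig1 and Sc5d (18.5%, against 7.15% of all). These matches describe letters only and show no binding.

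Nek7 was at 62.9, 69.1 and 63.7 CPM in WT livers 1 to 3 and at 14.5, 18.1 and 16.7 CPM in Hom livers 1 to 3, and the groups were far apart. CPM here is the rounded estimated count relative to a library total scaled by TMM factors (trimmed mean of M values). These factors ran from 0.806 to 0.924 in WT livers and from 1.09 to 1.23 in Hom livers, on totals of 19349400 to 19730200 estimated counts per liver. The lowest rounded count of any member in any liver was 100. WT replicate 1 and Hom replicate 1 stood farther from their groups than the other livers: their chi-square per degree of freedom against same-group livers was 75.6 to 152, while the remaining pairs gave 22.3 and 25.3. Hom replicate 1 also had 0 counts of the Y-linked genes Ddx3y and Kdm5d, which had at least 630 and 243 in each of the other 5 livers. The Y-linked gene Uty had 149 counts in Hom replicate 1 and 464 to 725 in the other livers. Liver cell markers moved between the groups, and their part in the results was not tested. Of 25 hepatocyte markers 16 were lower and 0 higher in Hom livers, and their summed level was 216658 to 251792 CPM in WT and 115877 to 167747 CPM in Hom livers. All 12 cholangiocyte markers were higher (summed level 90.1 to 123 CPM in WT and 710 to 1015 CPM in Hom livers). Of 18 stellate cell markers 10 were higher and 2 lower (430 to 512 and 959 to 1030 CPM), of 18 macrophage markers 5 were higher and 3 lower (408 to 943 and 725 to 947 CPM), of 13 endothelial markers 1 was higher and 5 lower (308 to 411 and 267 to 275 CPM), and of 7 lymphocyte markers tested 2 were higher and 0 lower (6.8 to 10.5 and 9.75 to 16.4 CPM for 10 markers). No marker of these 6 lists was at 0 in all livers. In whole liver RNA, fewer cells of a type and less RNA per cell cannot be told apart.

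The question put to these genes was whether losing NEK7 in hepatocytes went with a change in cholesterol genes. Sqle, Srebf2 and Abcg1 were higher in Hom livers, and Ebp, Tm7sf2, Nr1h3, Mylip and Abcg8 were lower, so that 3 of 29 members rose and 5 fell. The call was an adjusted p below 0.05 in the quasi-likelihood test of edgeR, with Benjamini-Hochberg adjustment over all 13805 genes tested. These are 10.3% and 17.2% of the members. Among all genes tested, 21.5% were higher and 20.1% lower, so neither share of the members was above that of all genes in this fit. That order turned in some alternative fits, which are given below with their own shares. The median log2 fold change, Hom against WT, was 0.20 over the members, with a range from −1.02 to 0.95, and 0.00 over all genes. The 3 Hom livers lay above the 3 WT livers for 6 members and below them for 6, against 28.7% and 27% of all genes. Of these 12 members, 5 did not pass the test, namely Hmgcs1, Idi1, Acat2, Soat2 and Abca1.

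**Figure D1:**
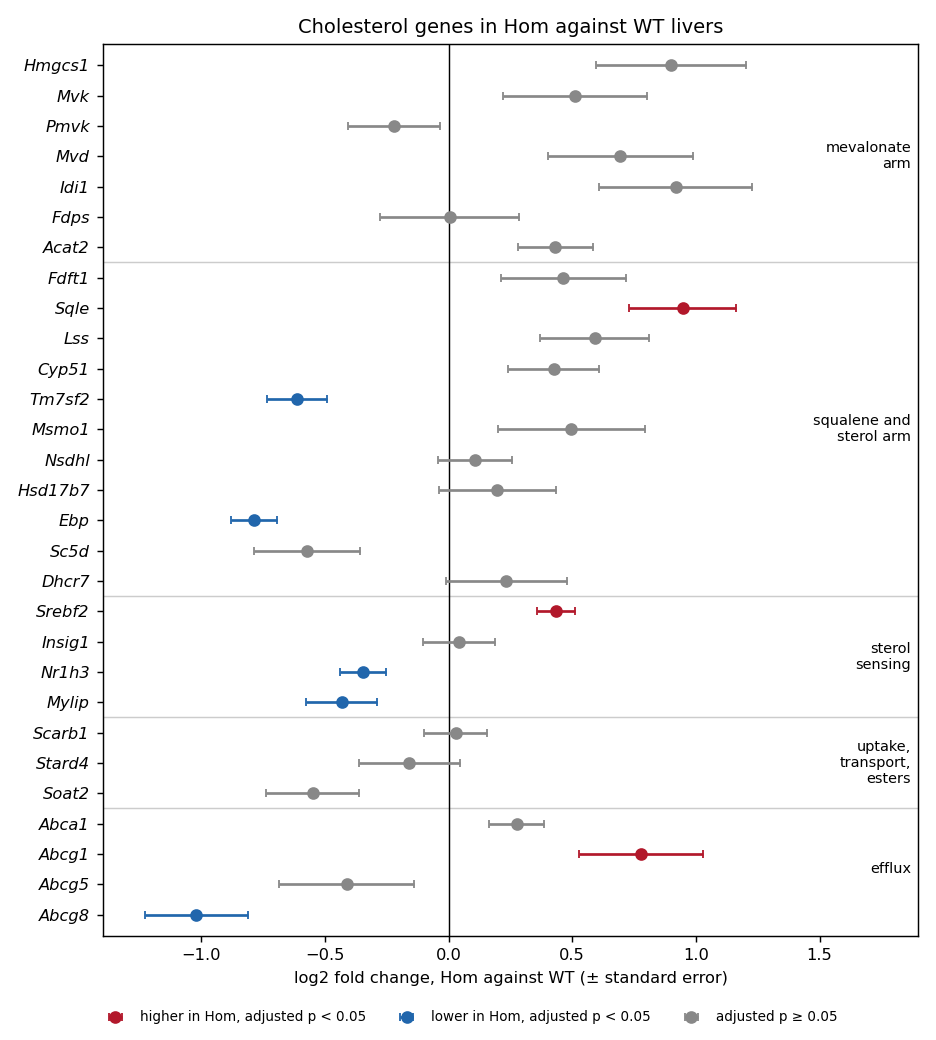
Log2 fold change of each of the 29 members, Hom against WT (x axis), with its SE as a bar, ordered by role (y axis). Red points passed the test as higher, blue points as lower and grey points did not pass it. Most mevalonate and sterol genes sit right of 0 in grey, Sqle stands out in red at 0.95, and Ebp and Tm7sf2 lie left of 0 in blue.

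The mevalonate arm, 7 genes from acetyl-CoA to farnesyl diphosphate, held no called member. Hmgcs1, the cytosolic HMG-CoA synthase, was at 242, 522 and 425 CPM in WT livers 1 to 3 and at 599, 944 and 674 CPM in Hom livers 1 to 3, the order used for all genes below. All Hom livers were above all WT livers, but the WT livers themselves spanned 2.16-fold. Its log2 fold change of 0.90 (standard error, SE, 0.30) had an adjusted p of 0.0506 from edgeR's quasi-likelihood test, just outside the threshold. Idi1, the isomerase that provides dimethylallyl diphosphate, read 24.7, 59.4 and 38.2 CPM in WT and 71.3, 95.2 and 64.1 CPM in Hom livers. Here too the groups did not overlap while the WT livers spanned 2.41-fold, and the log2 fold change was 0.92 (SE 0.31, adjusted p = 0.0505 from the same edgeR test). Acat2, the cytosolic acetoacetyl-CoA thiolase that opens the pathway, gave 78.7, 85.2 and 76.9 CPM in WT and 90.8, 134 and 99.6 CPM in Hom livers (log2 fold change 0.43, SE 0.15, edgeR adjusted p = 0.0554). Acat2 has a close paralog, Acat3, and how reads were shared between such copies is not given in the sources used here.

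The remaining mevalonate genes overlapped between the groups. Mvk, mevalonate kinase, had a log2 fold change of 0.51 (SE 0.29), and Mvd, the decarboxylase after it, 0.69 (SE 0.29). Pmvk, the phosphomevalonate kinase between them, was at −0.22 (SE 0.19). Fdps, farnesyl diphosphate synthase, read 201, 347 and 342 CPM in WT and 221, 396 and 275 CPM in Hom livers, and its log2 fold change was 0.0038 (SE 0.28). Fdps shares exon bases with Gm43738 on the same strand in GENCODE M21, so its count may hold reads of that gene. The adjusted p-values of these 4 ran from 0.0966 for Mvd to 0.993 for Fdps in the edgeR test.

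In the squalene and sterol arm, 11 genes, 1 was higher, 2 were lower and 8 did not pass the test. Sqle, squalene epoxidase, which commits squalene to sterols and is a control point of the pathway, was at 61.6, 107 and 92.8 CPM in WT and at 193, 171 and 139 CPM in Hom livers. The lowest Hom liver stood above the highest WT liver, and Hom replicate 1 was the highest. The change was 1.93-fold, or 0.95 on the log2 scale (SE 0.22, adjusted p = 0.0135 from edgeR's test), and it passed the test in all 14 alternative fits.

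Ebp, the sterol isomerase near the end of the pathway, moved the other way. It was at 263, 281 and 283 CPM in WT and at 171, 153 and 155 CPM in Hom livers, with little spread in either group. Its log2 fold change was −0.79 (SE 0.092, edgeR adjusted p = 0.00124), the smallest adjusted p among the 29 members. Tm7sf2, a sterol reductase that acts on the product of Cyp51, was at 142, 160 and 148 CPM in WT and at 104, 108 and 82.4 CPM in Hom livers (log2 fold change −0.61, SE 0.12, edgeR adjusted p = 0.00771). Again the groups were apart, but with library size alone the log2 fold change was −0.15 and the call was lost (adjusted p = 0.317). Tm7sf2 shares exon bases with Vps51 on the same strand in GENCODE M21, so its count may hold reads of that gene. Sc5d, the desaturase that follows Ebp, was the member with the highest TPM in WT livers, and it read 471, 744 and 666 CPM in WT and 354, 513 and 397 CPM in Hom livers. The groups overlapped through WT replicate 1, and its change of −0.57 on the log2 scale (SE 0.21, edgeR adjusted p = 0.0688) did not pass the test.

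**Figure D2:**
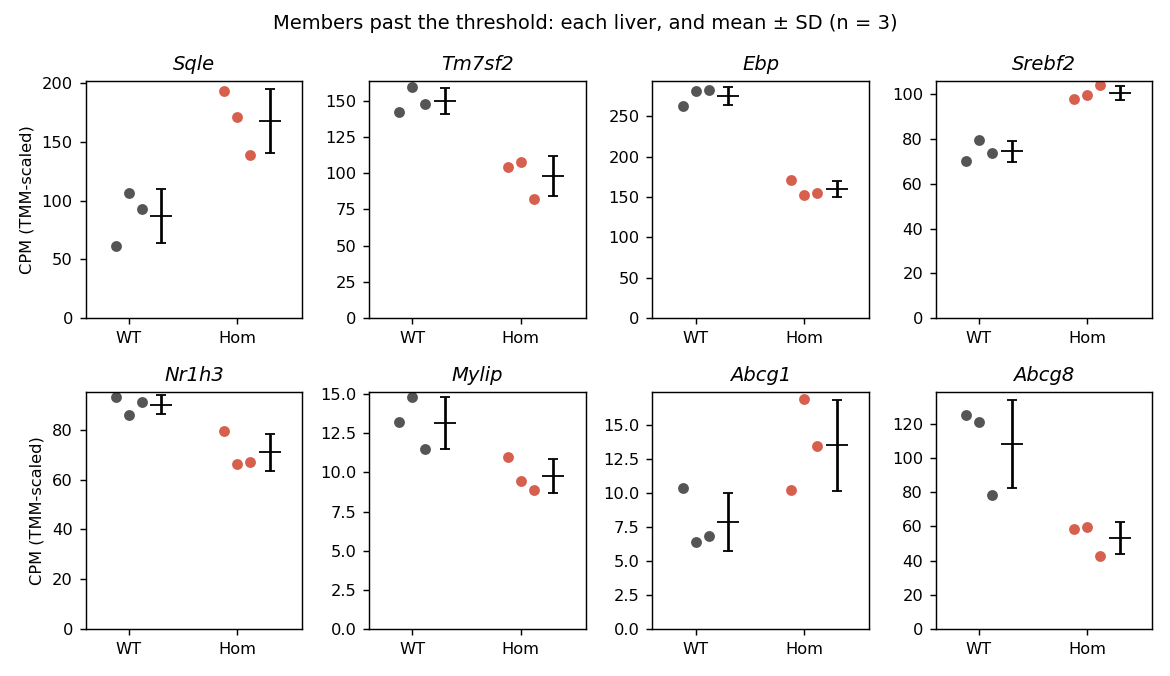
CPM scaled by TMM factors (y axis, from 0) of the 8 members that passed the test, with 1 point per liver for WT and Hom mice (x axis) and the mean ± SD of 3 livers as a dash with bars. The Hom points of Sqle and Srebf2 lie above all WT points, those of Ebp, Tm7sf2, Nr1h3, Mylip and Abcg8 lie below all WT points, and only Abcg1 overlaps.

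The other sterol genes lay at or above 0 without passing the test. Lss, lanosterol synthase, had a log2 fold change of 0.59 (SE 0.22, edgeR adjusted p = 0.0682), followed by Msmo1, the methyl sterol oxidase, at 0.50 (SE 0.30) and Fdft1, squalene synthase, at 0.46 (SE 0.25). Cyp51, the lanosterol demethylase, was at 177, 283 and 235 CPM in WT and at 279, 352 and 301 CPM in Hom livers, that is, 0.42 on the log2 scale (SE 0.18, edgeR adjusted p = 0.104). Dhcr7, which makes cholesterol from its last precursor on one branch, was at 0.23 (SE 0.24), Hsd17b7, a sterol ketoreductase, at 0.20 (SE 0.24) and Nsdhl, which removes a carboxyl group from the sterol ring, at 0.11 (SE 0.15). Fdft1 and Cyp51 share exon bases with Ctsb and Akap9 on the opposite strand in GENCODE M21, as Hmgcs1, Idi1 and Lss do with Gm48342, Gm48574 and 4930483K19Rik, and the strandedness of the libraries is not given in the sources used here.

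The 18 synthesis genes of both arms varied together from liver to liver within a group. WT replicate 1 was the lowest WT liver for 17 of the 18 genes, and WT replicate 2 was the highest for 16. Among Hom livers, Hom replicate 2 was the highest for 16 genes and Hom replicate 1 the lowest for 10. The median coefficient of variation of the 18 genes was 27.2% in WT and 18.6% in Hom livers, against 12.9% and 10.7% over all genes tested. Taking the log2 ratio to the WT mean of each gene, the median of the 18 genes was −0.48, 0.32 and 0.12 in WT livers 1 to 3 and 0.25, 0.69 and 0.30 in Hom livers 1 to 3. WT replicate 2 thus lay above 2 of the 3 Hom livers. Their summed level was 2293, 3736 and 3289 CPM in WT and 3157, 4279 and 3226 CPM in Hom livers, and these ranges overlapped.

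**Figure D3:**
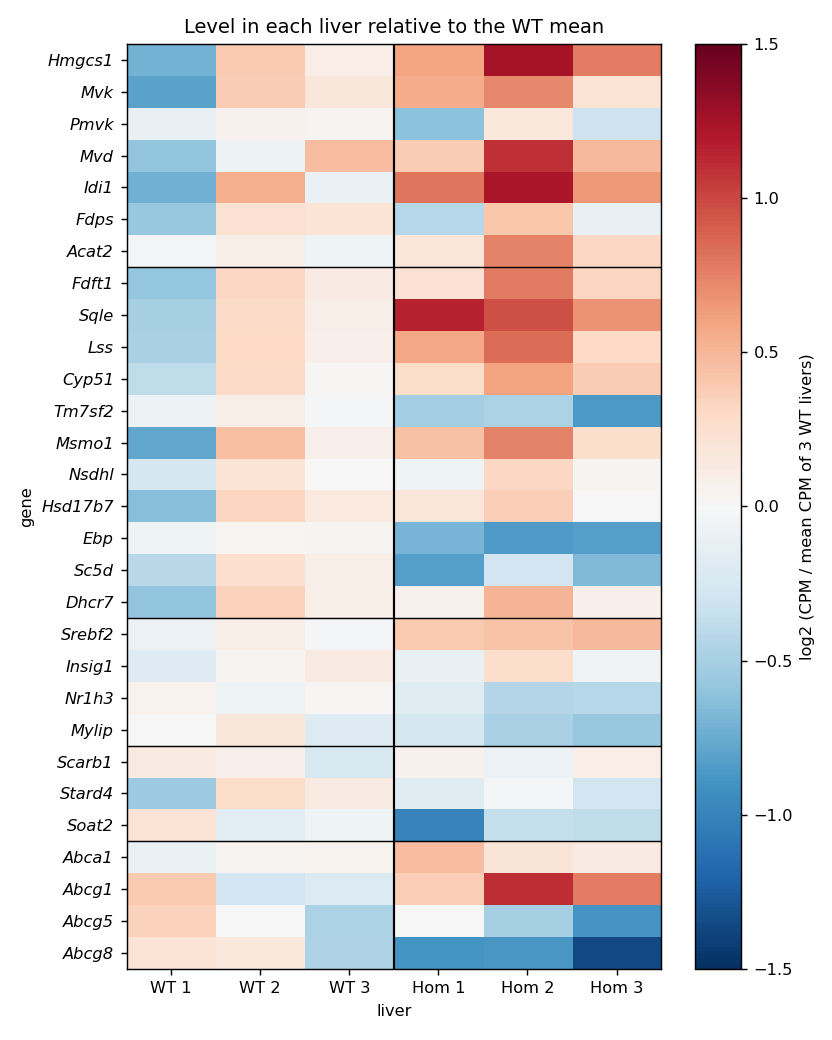
Level of each member (y axis, ordered by role) in each of the 6 livers (x axis), as the log2 ratio of its CPM to the mean of the 3 WT livers, from blue (lower) to red (higher). WT replicate 1 is blue and Hom replicate 2 red through most of the synthesis genes, whereas Ebp, Tm7sf2 and Abcg8 are blue in all 3 Hom livers.

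Among the 4 sensors and regulators, 1 was higher, 2 were lower and 1 did not pass the test. Srebf2 was at 70.3, 79.5 and 73.7 CPM in WT and at 98.0, 99.9 and 104 CPM in Hom livers. Both groups were tight and apart, with a log2 fold change of 0.44 (SE 0.078, edgeR adjusted p = 0.00550), and Srebf2 passed the test in all 14 alternative fits. Insig1, which holds the SREBP complex in the endoplasmic reticulum and is itself an SREBP target, gave 319, 374 and 401 CPM in WT and 336, 437 and 352 CPM in Hom livers. Those ranges overlapped almost fully (log2 fold change 0.042, SE 0.15, edgeR adjusted p = 0.838).

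Nr1h3, which encodes LXR alpha, was at 93.2, 86.1 and 91.2 CPM in WT and at 79.4, 66.3 and 67.1 CPM in Hom livers (log2 fold change −0.35, SE 0.094, edgeR adjusted p = 0.0248). Mylip, an LXR target whose product, the ubiquitin ligase IDOL, sends lipoprotein receptors to degradation, was at 13.2, 14.8 and 11.5 CPM in WT and at 10.97, 9.44 and 8.88 CPM in Hom livers (log2 fold change −0.43, SE 0.14, edgeR adjusted p = 0.0462). The groups were apart for both genes, by a narrow margin for Mylip. With library size alone in place of TMM factors both changes turned positive, to 0.10 for Nr1h3 and 0.018 for Mylip, and Mylip passed the test in 4 of 14 alternatives and Nr1h3 in 7 of 14.

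No gene of uptake, transport and esterification passed the test. Scarb1, the receptor that takes cholesterol from high density lipoprotein, was at 272, 260 and 208 CPM in WT and at 258, 233 and 265 CPM in Hom livers (log2 fold change 0.029, SE 0.13, edgeR adjusted p = 0.873). Stard4, a soluble carrier of sterols between membranes, had a log2 fold change of −0.16 (SE 0.21). Soat2, which esterifies cholesterol for lipoproteins, read 37.2, 28.9 and 31.1 CPM in WT and 16.2, 25.3 and 24.8 CPM in Hom livers. Its groups did not overlap, and its log2 fold change of −0.55 (SE 0.19) had an adjusted p of 0.0515 in the edgeR test.

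The 4 efflux transporters were split. Abcg8, which pairs with Abcg5 to pump sterols into bile, was at 125, 121 and 78.5 CPM in WT and at 58.2, 59.3 and 42.5 CPM in Hom livers. All Hom livers lay below all WT livers, and the decrease, −1.02 on the log2 scale (SE 0.21, edgeR adjusted p = 0.00891), was the member change of the largest size. With library size alone it was −0.57 and the call was lost (adjusted p = 0.0627). Its partner Abcg5 was at 103, 81.3 and 58.3 CPM in WT and at 81.3, 57.2 and 43.6 CPM in Hom livers, overlapping ranges with a log2 fold change of −0.41 (SE 0.27, edgeR adjusted p = 0.260). With the replicate block the Abcg5 change was −0.42 (SE 0.084, edgeR adjusted p = 0.0201) and passed the test, but the samples share only a number. The difference between the changes of these partners was not tested. The start sites of Abcg5 and Abcg8 lie 110 bases apart on opposite strands, by the nearest pair of RefSeq starts on GRCm38.p6, and GENCODE M21 gives them shared exon bases, so reads there could be counted for either gene if strand was not used.

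Abcg1, which loads cholesterol onto high density lipoprotein and is known best from macrophages, was at 10.3, 6.41 and 6.82 CPM in WT and at 10.2, 16.9 and 13.4 CPM in Hom livers. Hom replicate 1 fell within the WT range through WT replicate 1, and the log2 fold change was 0.78 (SE 0.25, edgeR adjusted p = 0.0435). With only livers 2 and 3 of each group it was 1.203 (adjusted p = 0.00396 from edgeR). Without Hom replicate 2 it was 0.58 and the adjusted p 0.137, and the call was also lost without WT replicate 2, WT replicate 3 or Hom replicate 3, with the replicate block (adjusted p = 0.0965) and with the gene length offset (adjusted p = 0.0600). Abca1, the transporter that starts high density lipoprotein, was at 128, 140 and 141 CPM in WT and at 188, 156 and 150 CPM in Hom livers. Its groups did not overlap, but the log2 fold change of 0.28 (SE 0.11, edgeR adjusted p = 0.0874) did not pass the test.

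How many of the synthesis genes counted as higher depended on the scaling and on small changes of the fit. With library size alone the log2 fold change had a median of 0.45 over all genes, where TMM factors put it at 0.00. Against that common shift, 18 members (62.1%) were higher and 1 was lower, beside 47.6% and 4.65% of all genes. With upper-quartile factors 8 members were higher (27.6%, against 25.2% of all genes) and 3 lower (10.3%, against 14.9%). DESeq2, run without the filter on low counts, called 7 higher (24.1%, against 16.9% of 17859 genes) and 6 lower (20.7%, against 15.9%). All 29 members passed that filter, so these shares of all genes have an unlike base and no order is read from them. DESeq2 called 3014 genes higher and 2841 lower, where edgeR called 2974 and 2780 of 13805. Among the members higher with DESeq2 were Hmgcs1 with an adjusted p of 0.00638 and Idi1 with 0.0106. Their log2 fold changes of 0.89 and 0.91 were close to those of edgeR. With the replicate number as a block in edgeR, 7 members were higher (24.1%, against 17.3% of all genes) and 6 lower (20.7%, against 16.0%). Both shares were above those of all genes. Over all genes the same-numbered livers did not deviate together, but among the 18 synthesis genes replicate 2 was mostly the highest and replicate 1 mostly the lowest liver in both groups, as given above. Leaving out 1 liver at a time gave 2 to 4 members higher (6.90% to 13.8%) and 3 to 5 lower (10.3% to 17.2%). All genes were at 14.2% to 21.5% higher and 12.6% to 19.4% lower. The members' share higher was below that of all genes in each of these fits. Their share lower was above that of all genes without Hom replicate 2 (13.8%, against 13.1%) and, narrowly, without WT replicate 2 (13.79%, against 13.77%). Without Hom replicate 3 the members lower were 3, and without Hom replicate 2 or Hom replicate 3 those higher were 2. Synthesis genes higher were 3 without WT replicate 2 (16.7%, against 14.5% of all genes), where all livers gave 1. They were 2 without WT replicate 3 or Hom replicate 1 (11.1%, against 17.2% and 19.2%). Without Hom replicate 1, the liver with no Ddx3y counts, 5 members were lower (17.2%, against 18.1% of all genes) and 4 higher (13.8%, against 19.2%). With only livers 2 and 3 of each group, 5 members were higher (17.2%, against 23.9% of all genes) and 6 lower (20.7%, against 20.5%). Hmgcs1 and Acat2 were among those higher.

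**Figure D4:**
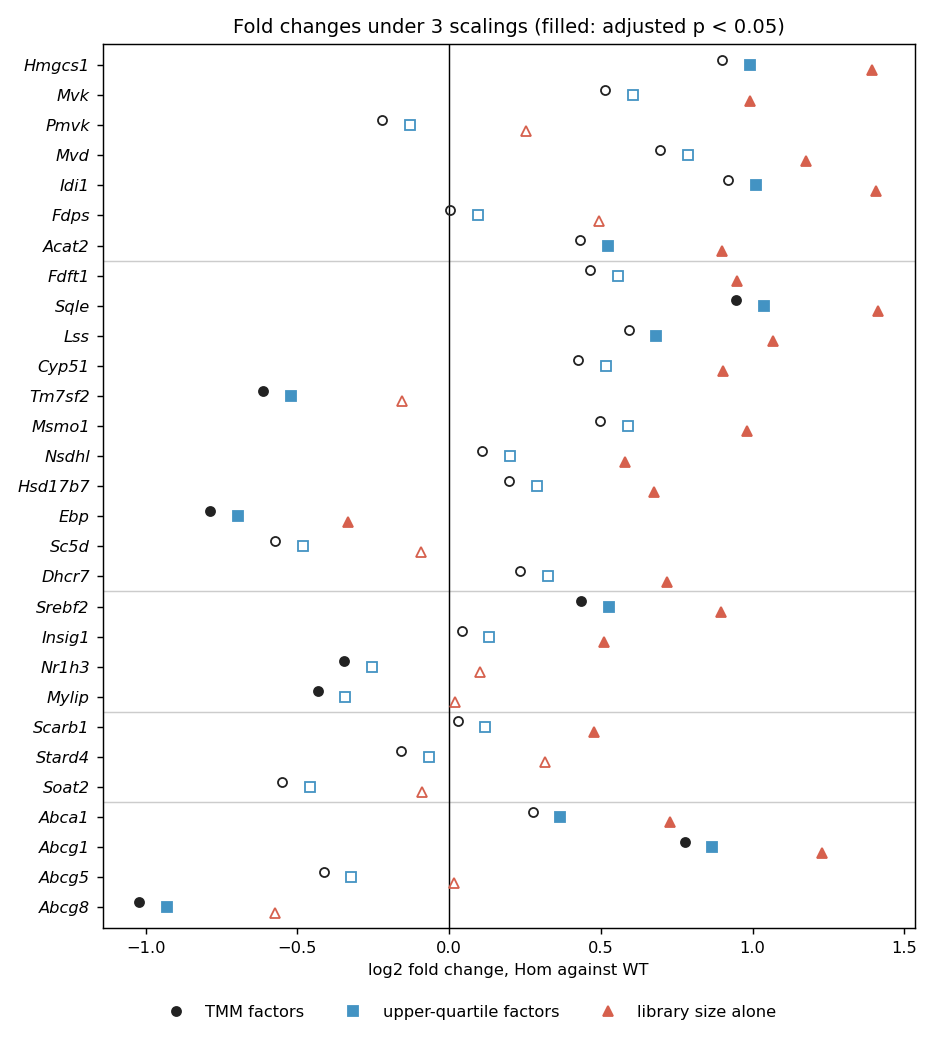
Log2 fold change of each member, Hom against WT (x axis), under TMM factors (circles), upper-quartile factors (squares) and library size alone (triangles), with filled symbols for an adjusted p under 0.05. The triangles sit about 0.45 to the right of the circles for all 29 genes, which brings Nr1h3 and Mylip across 0 and leaves Ebp as the 1 member called lower.

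Levels between genes were compared only as TPM, which is per gene length. In WT livers the members ran from Abcg1 at 2.00 ± 0.796 TPM (SD, n = 3) and Mylip at 6.48 ± 1.06 to Fdps at 339 ± 64.4 and Sc5d at 343 ± 50.8. The top neighbours Sc5d and Fdps differed by less than their spread. Ebp at 234 ± 16.7 and Insig1 at 201 ± 7.97 TPM followed. In Hom livers Fdps led at 545 ± 198 TPM, then Hmgcs1 at 483 ± 148 and Msmo1 at 386 ± 83.2. Hmgcs1 was the sixth member in WT livers, at 163 ± 44.7 TPM. TPM values carry no TMM factor, so the values of Hom and WT livers differ by scaling as well: Tm7sf2 read 151 ± 11.1 TPM in WT and 152 ± 23.2 in Hom livers although its TMM-scaled CPM fell. The summed TPM of the 18 synthesis genes was 1739, 2265 and 2045 in WT and 2749, 4311 and 3121 in Hom livers, without overlap, whereas the sums in TMM-scaled CPM overlapped.

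**Figure D5:**
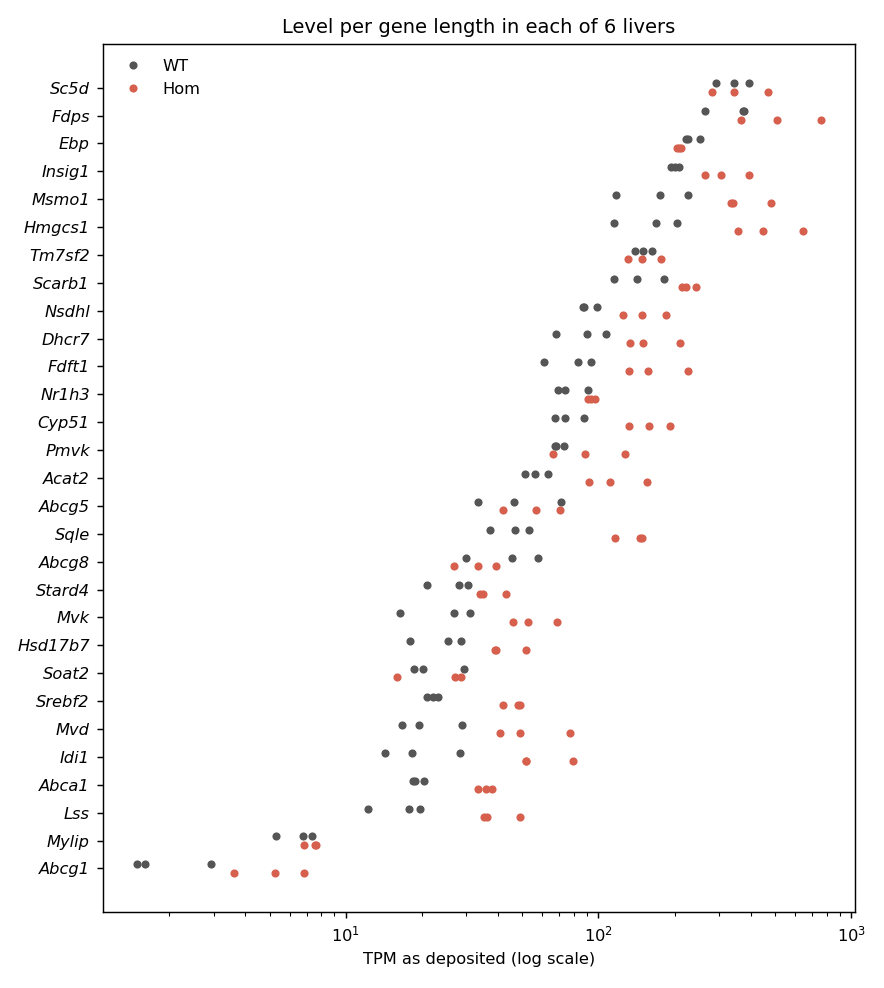
TPM as deposited (x axis, log scale) of each member in the 3 WT livers (grey) and the 3 Hom livers (red), ordered by the WT mean (y axis). Levels span from 2.00 TPM for Abcg1 to 343 TPM for Sc5d in WT livers, and the red points of Hmgcs1, Msmo1 and Fdps reach the top of the range.

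A wider list of 35 other cholesterol genes, written by hand beside the 29, was read from the same fit. Of these, 9 were higher and 9 were lower in Hom livers, 25.7% each, against 21.5% and 20.1% of all genes, and the median log2 fold change was 0.018. Gramd1b, a carrier of cholesterol from the plasma membrane, rose from 8.15, 5.45 and 5.16 CPM in WT to 18.2, 18.1 and 21.3 CPM in Hom livers (log2 fold change 1.61, SE 0.19, edgeR adjusted p = 0.00135). Npc1l1, a sterol uptake protein, had 1, 2 and 2 counts in WT and 137, 25 and 14 in Hom livers (edgeR adjusted p = 0.0196), with most of the Hom counts in replicate 1.

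Among the lower genes of the wider list the 4 largest decreases were in Acat1, Scp2, Apoa1 and Scap. Acat1, the mitochondrial thiolase of ketone bodies, was at 367 ± 53.3 CPM in WT and 144 ± 13.7 CPM in Hom livers (SD, n = 3 each), or −1.35 on the log2 scale. Scp2, a peroxisomal sterol carrier and thiolase, was at −0.91, and Apoa1, the main protein of high density lipoprotein, at −0.67. Scap, the escort that carries SREBP to the Golgi when sterols are low, fell from 138, 188 and 165 CPM in WT to 111, 106 and 93.9 CPM in Hom livers (log2 fold change −0.66, SE 0.13, edgeR adjusted p = 0.00815). Srebf2 and its escort thus changed in opposite directions in the same livers.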

How the data were processed

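Liver RNA of 3 WT and 3 Hom mice was sequenced on the DNBSEQ platform. The authors deposited estimated counts (expected counts, not scaled between livers), TPM and FPKM per gene, and the submitters' processing notes name HISAT2 2.0.4, Bowtie2 2.2.5, RSEM 1.2.12 and mm9; their roles, the annotation and the strandedness are not given in the sources used here. The authors made TPM and FPKM values per gene length, and FPKM served here only to recover relative gene length. The 6 deposited mean columns were not used, since those named for one group hold the mean of the other.

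Counts were rounded and fitted on the whole table in R 4.3.3 with edgeR 4.0.16 (filterByExpr, TMM factors, quasi-likelihood test, Benjamini-Hochberg adjustment over 13805 genes, threshold 0.05, no minimum fold change). Standard errors came from the fold change and F. P-values measure the spread between these mice. The alternatives were DESeq2 1.42.0, other scalings and filters, the replicate block, a loess offset for gene length, each liver left out, a minimum log2 change of 1 in size and, chosen after seeing the data, livers 2 and 3 only. The fit was tested on simulated data. WT and Hom livers share replicate numbers, but same-numbered livers did not deviate together over all genes tested (correlations −0.079, −0.039 and −0.018). The members, gene lists and naming rule (all members, and the 4 largest changes each way in the wider list) were chosen with earlier results of these data known. Some genes that this rule names are not reported here. The E-box, CCAAT and longer sterol motifs were listed at the outset, and the core TCACNCCA was added later.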

Additional observations from a re-analysis of the deposited data

How the results depend on the processing

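Over 14 alternatives, 318 of 406 comparisons of single members with their reported value kept direction and call, 47 gained the call and 23 lost it, all in the same direction. Another 16, in 8 genes called in neither fit, changed sign (Fdps, Insig1, Nsdhl, Hsd17b7, Scarb1, Stard4, Pmvk and Abcg5). The called members that reversed were 2, Nr1h3 (log2 fold change 0.10) and Mylip (0.018) with library size alone, which shifts all genes alike. Under that scaling, members were 1 lower and 18 higher, synthesis genes 1 lower and 13 higher, other cholesterol genes 1 lower and 16 higher, and all genes 642 lower and 6574 higher. Upper-quartile factors gave 3 members lower and 8 higher, with 5 synthesis genes higher. DESeq2 gave 7 members and 5 synthesis genes higher. At least 10 counts in every liver gave 6 and 4, the 6 members being 20.7%, against 20.9% of all genes. The gene length offset gave 2 synthesis genes higher, and livers 2 and 3 alone 5 members and 3 synthesis genes higher. The cause of these changes was not tested.

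With the replicate block, 7 members and 6 synthesis genes were higher, and 5 other cholesterol genes were lower, but the samples share only a number. The block moved no other count here by over 1.5 times. With a minimum log2 change of 1 in size, members were 1 lower and 0 higher, synthesis genes 0 and 0, and all genes 575 lower and 1825 higher. Across fits that left out 1 liver, members were 3 to 5 lower and 2 to 4 higher, synthesis genes 1 to 3 higher, other cholesterol genes 4 to 10 lower and 5 to 9 higher, and all genes 1767 to 2750 lower (1829 without Hom replicate 2, 1767 without Hom replicate 3). The lowest counts of other cholesterol genes came without Hom replicate 2 (4 lower) and without WT replicate 3 (5 higher), and 5 were lower without WT replicate 2, WT replicate 3 or Hom replicate 3.

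Depth limits few members, since each had at least 100 counts per liver.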
